A study of Mus musculus with 65 samples.

Results

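On chromosomes 1 to 19 of mouse testis, 248 CTCF sites carried both HORMAD1 and IHO1 in the wild type and lay outside the hotspots of meiotic recombination. They were chosen from the wild-type CTCF peak list as rows that shared at least 1 bp with a wild-type HORMAD1 peak and with a wild-type IHO1 peak, and with no wild-type DMC1 hotspot. They make up 248 of the 32676 CTCF rows in the series, and 248 of the 30630 rows on chromosomes 1 to 19 without a hotspot. The presence of CTCF, HORMAD1 and IHO1 and the absence of DMC1 in the wild type are therefore given by the choice. The choice did not use the CTCF score, SYCP3 and MEI4 at these sites, or the knockout lists of HORMAD1, IHO1, SYCP3 and MEI4.

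In early meiosis each chromosome is folded into an array of chromatin loops anchored on a protein axis. SYCP3 is a structural component of that axis, and HORMAD1 is a HORMA-domain protein that loads onto unsynapsed axes. IHO1 binds HORMAD1 and, with MEI4 and its partner REC114, forms the machinery that lets SPO11 cut DNA. PRDM9 is the zinc-finger methyltransferase that places most breaks in mice, and DMC1 is a strand-exchange protein found on the resected ends of those breaks. CTCF is a zinc-finger protein that, with cohesin, holds the bases of chromatin loops in somatic cells.

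Binding sites were mapped with ChIP-seq, in which DNA bound to a protein is recovered with an antibody and sequenced. Chromatin came from whole testes of C57BL/6JCrl wild-type mice and of 5 knockouts that the labels place on the same line: B6;129P2-Prdm9tm1Ymat/J (Prdm9KO), Spo11tm1Mjn (Spo11KO), Mei4tm1Bdm (Mei4KO), Iho1tm1.2Atot (Iho1KO) and Hormad1tm1.2Atot (Hormad1KO). In all groups, male pups aged 1.5 days had been fed a blocker of retinoic acid synthesis for 7 to 10 days. The labels name it WIN 18,466. One injection of retinoic acid then started meiosis in step, and testes taken 8 days later were 80 to 95% leptotene and zygotene spermatocytes by the labels. Peak lists carry no cell type markers, so that share was not checked here, and other testis cells were present in the chromatin. Each antibody and genotype had 1 peak list, so no difference between genotypes has a replicate check and no p-value is given. The labels name 1 sample for SYCP3 in Iho1KO, Prdm9KO and Spo11KO, and 2 for every other group used here.

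The members' own intervals could not be read as sequence, but 36 RefSeq promoter windows (250 bases before to 50 after a gene start, GRCm38.p6, the assembly also called mm10) lay wholly inside member CTCF rows. A part of the core motif that CTCF is known to read was searched on both strands, the letters CCA, any 2 bases, AG, any 2 bases and GGC. It was found in 4 of the 36 windows (11.1%), against 2.47% of 31365 promoter windows of the same length on chromosomes 1 to 19. A looser motif with any base in place of the A of CCA, which includes the first, was in 5 of the 36 (13.9%), against 8.73% of all. At 36 windows the interval of the first share runs from 4.41 to 25.3%. That interval treats windows as independent, although windows of different starts of the gene Alkbh4 lay in the same CTCF row. Windows inside CTCF sites held the first motif in 6.10% of cases with neither HORMAD1 nor IHO1, 8.51% with HORMAD1 lacking IHO1 and 12.5% with IHO1 lacking HORMAD1. In these 3 classes the looser motif was in 16.6, 21.3 and 21.9% of windows, all above its share at members. The 4 matches are shown because they are the stretches of members whose letters could be read against the motif. Each is printed 5′ to 3′ as 30 bases on the strand that reads the motif, with the matched letters in capitals.
Gm36208, chr10:122792654-122792683, plus strand: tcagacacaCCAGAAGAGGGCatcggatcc
Gm33330, chr16:30253378-30253407, plus strand: tcctgtatgCCAACAGGAGGCacactacaa
Vmn2r29, chr7:7278497-7278526, minus strand: tctctgtcaCCACCAGGTGGCgacagagag
Alkbh4, chr5:136136013-136136042, plus strand: ccggggagcCCAGGAGGTGGCgcacaacaa
A match describes the letters and does not show where in the site CTCF was bound. The 4 sites differed in how often they were found in the knockouts. The site at Vmn2r29, a vomeronasal receptor gene, had HORMAD1 peaks in all 4 knockout lists of that protein and IHO1 peaks in Prdm9KO and Mei4KO. The site at Alkbh4, which encodes a demethylase, had HORMAD1 in Prdm9KO, Spo11KO and Iho1KO and IHO1 in Mei4KO. At the sites of the uncharacterised genes Gm36208 and Gm33330, HORMAD1 was found in the same 3 knockouts as at Alkbh4 and IHO1 in both Spo11KO and Mei4KO. Gm36208 also kept IHO1 in Prdm9KO.

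Members had high CTCF scores. The deposited score, a value of each CTCF peak whose unit is not given, had a median of 4.11 over the 248 members, with quartiles of 3.29 and 5.11 and a range of 0.589 to 31.4. Its median was 1.91 over all 30630 rows without a hotspot and 1.88 over the 29869 rows with neither HORMAD1 nor IHO1. With the rows without a hotspot cut into 4 equal classes of score, 203 members (81.9%) fell in the highest class and 5 (2.02%) in the lowest. Read the other way, members were 2.65% of the rows in the highest class and 7.90% of the 1000 highest scores, so most of the highest-scoring CTCF peaks were not members. The 344 CTCF sites with HORMAD1 lacking IHO1 had a median score of 3.95, near that of the members, and the 169 sites with IHO1 lacking HORMAD1 had one of 3.22. Member rows were also wide, with a median of 3068 bp against 1543 bp at sites with neither protein. The medians of the closest classes were 3154 bp with HORMAD1 lacking IHO1 and 3260 bp with IHO1 lacking HORMAD1. The part of row width in the shares below was not tested.

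**Figure D1:**
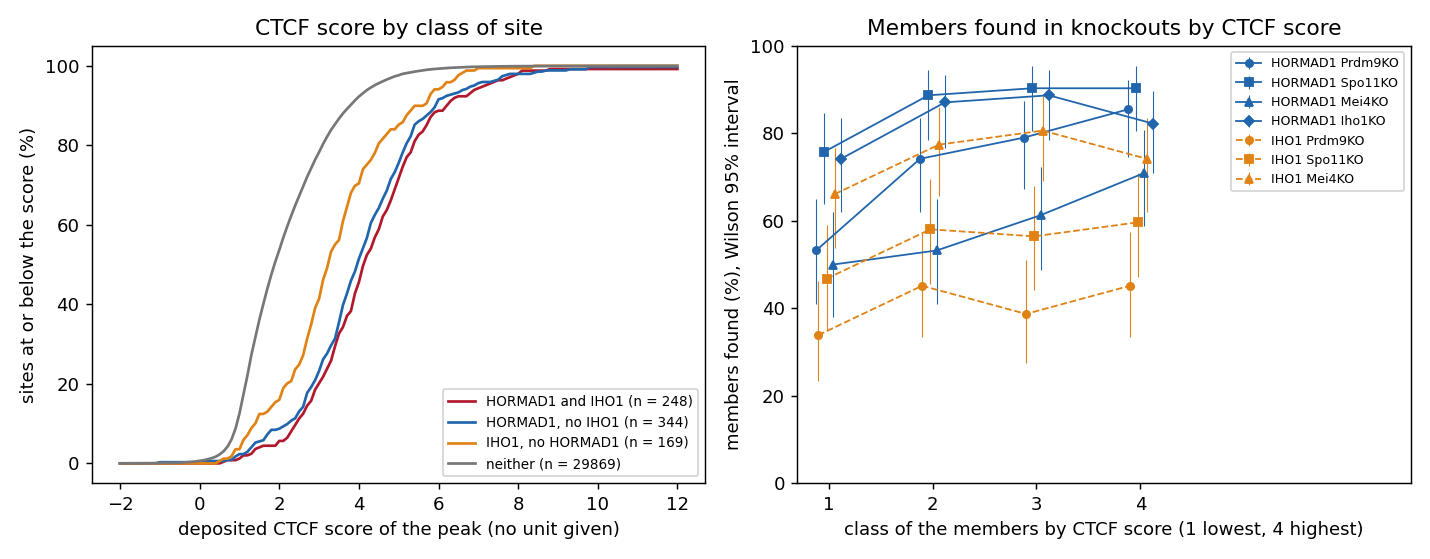
Left, the cumulative share of CTCF sites (%) against the deposited CTCF score for 4 classes of site, with 2 members above the end of the axis at 12. Right, the share of members found (%, with Wilson 95% intervals) in 7 knockout lists by class of the members' CTCF score, 62 members in each of 4 classes. The curve of the members lies to the right of that of sites with neither protein, and the HORMAD1 share in Prdm9KO runs from 53.2% in the lowest class to 85.5% in the highest.

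HORMAD1 was found again at most members in each of the knockouts. A member was counted as found where its CTCF row shared at least 1 bp with a peak of the knockout list, and each share is given with a Wilson 95% interval that covers counting error only and treats sites as independent. In Spo11KO, which makes no programmed breaks, HORMAD1 peaks lay at 214 of 248 members (86.3%, 81.5 to 90.0%), against 4.63% of all 30630 CTCF rows without a hotspot. In Iho1KO, which lacks the other protein that defines the members, they lay at 206 (83.1%, 77.9 to 87.2%), against 6.26% of all rows. In Prdm9KO they lay at 181 (73.0%, 67.1 to 78.1%), against 1.95%. In Mei4KO they lay at 146 (58.9%, 52.7 to 64.8%), against 10.6%. The HORMAD1 list of Mei4KO was the longest of that protein, with 5275 peaks against 1009 in Prdm9KO, and yet it held the fewest members. Of the members, 85 had a peak in Spo11KO and none in Mei4KO, and 17 had the reverse.

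Members that lacked a HORMAD1 peak in a knockout were mostly far from one. In Mei4KO, 5 of the 102 members without a peak had one within 2 kb, and the median gap to the nearest peak was 72478 bp. In Prdm9KO none of the 67 had a peak within 2 kb, and the smallest gap was 2805 bp. Counted over the 4 HORMAD1 knockout lists, 87 members (35.1%) were in all 4, 105 in 3, 36 in 2, 12 in 1 and 8 in none. This count over several lists, and those below, were made at members only. Whether they differ from other CTCF sites was not tested.

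The breadth of HORMAD1 at members differed in Mei4KO. At the 146 members found there, the median width of the HORMAD1 peak was 3471 bp, against 2081 bp for the wild-type peaks at the same sites, and it was wider than the wild-type peak at 127 of 146 (87.0%). In the other 3 knockouts 34.6 to 45.6% of the peaks at members were wider than their wild-type counterparts. Wider HORMAD1 peaks in Mei4KO were also the rule at CTCF sites with HORMAD1 lacking IHO1, at 193 of 203 (95.1%), where the share of members minus that of those sites was -8.09 percentage points (Newcombe 95% interval -14.9 to -2.11). Over the whole Mei4KO list the median HORMAD1 peak was 2580 bp wide, below that of 2641 bp in the wild type. Width was compared after the values were seen. It is the only measure of size that these lists hold.

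**Figure D2:**
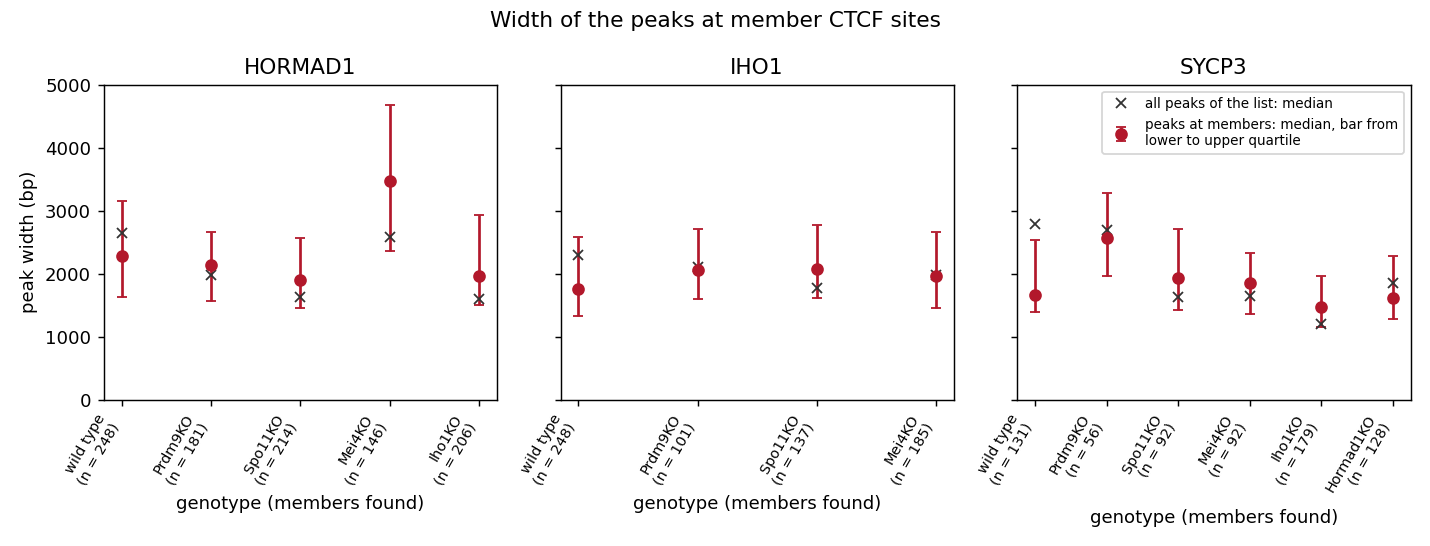
Width (bp) of HORMAD1, IHO1 and SYCP3 peaks at members in each genotype, with points at the median, bars from the lower to the upper quartile, crosses at the median over all peaks of the list, and the number of members found in brackets. HORMAD1 in Mei4KO has a median of 3471 bp at members, above those of the other HORMAD1 lists.

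IHO1 at the same sites followed another order of genotypes. It was found at 185 of 248 members in Mei4KO (74.6%, 68.8 to 79.6%), against 1.85% of all CTCF rows without a hotspot. In Spo11KO it was found at 137 (55.2%, 49.0 to 61.3%), against 1.19%, and in Prdm9KO at 101 (40.7%, 34.8 to 46.9%), against 0.669%. In Hormad1KO it was found at 1 member (0.403%, 0.0712 to 2.25%), against 0.0555% of all rows. The IHO1 list of Hormad1KO held 1860 peaks, that of the wild type 1589, that of Spo11KO 2681, that of Mei4KO 1036 and that of Prdm9KO 378. Of the other 247 members, 1 had a Hormad1KO IHO1 peak within 2 kb and 5 within 10 kb. Mei4KO thus had the largest share of members with IHO1 and the smallest share with HORMAD1. Over Prdm9KO, Spo11KO and Mei4KO, 64 members (25.8%) had IHO1 in all 3, 82 in 2, 67 in 1 and 35 (14.1%) in none.

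**Figure D3:**
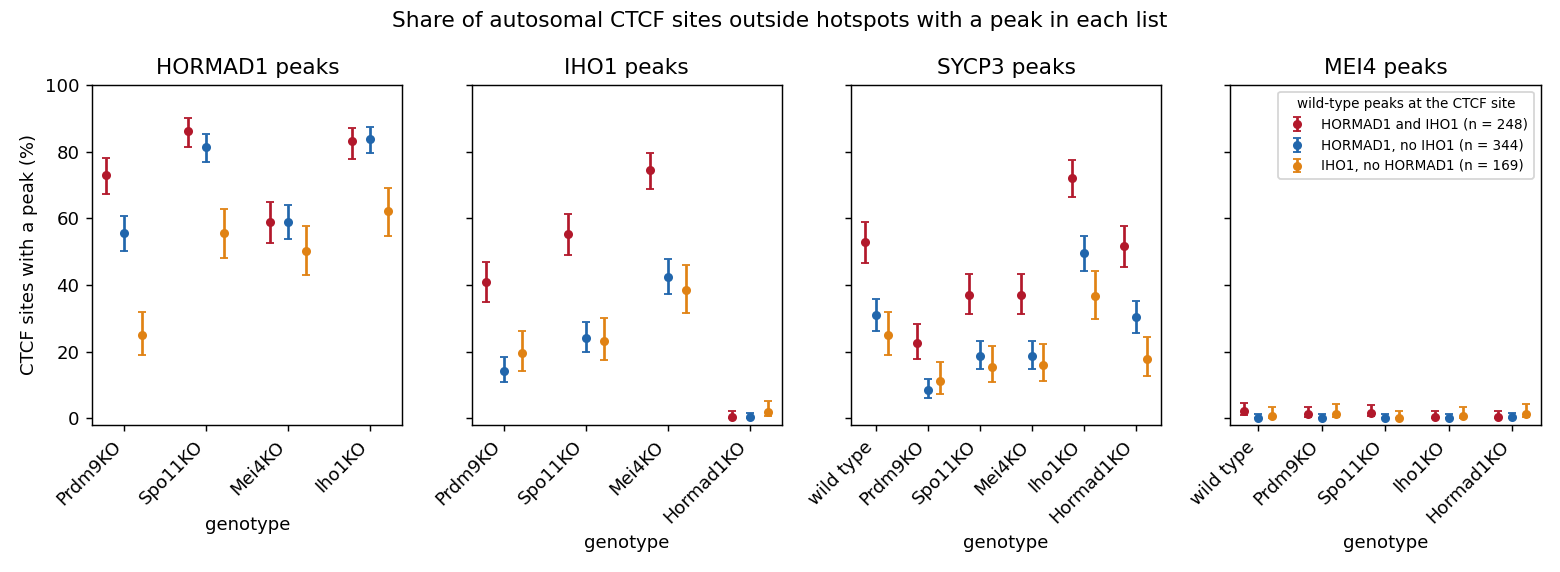
Share of CTCF sites (%) with a peak of HORMAD1, IHO1, SYCP3 or MEI4 in each genotype, for the 248 members, 344 sites with HORMAD1 lacking IHO1 and 169 sites with IHO1 lacking HORMAD1; bars are Wilson 95% intervals. IHO1 in Hormad1KO lies at 0.403% for the members, and SYCP3 of the members lies above both other classes in each genotype.

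Within a genotype, both proteins were found together at 120 members in Spo11KO, 107 in Mei4KO and 85 in Prdm9KO. In Mei4KO, 78 members had IHO1 without HORMAD1 and 39 had HORMAD1 without IHO1. In Spo11KO and Prdm9KO the balance was the other way, with 94 and 96 members that had HORMAD1 alone and 17 and 16 that had IHO1 alone. In Prdm9KO, IHO1 was found at 47.0% of the members with HORMAD1 and at 23.9% of those without, a difference of 23.1 points (95% interval 9.60 to 34.3). In Mei4KO the corresponding shares were 73.3 and 76.5%, with a difference of -3.18 points (-13.7 to 8.01). In Spo11KO the difference was 6.07 points (-11.2 to 23.3), and the interval was wide because 34 members lacked HORMAD1 there.

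SYCP3, which the choice of sites did not use, lay at about as many members as not in the wild type. Its peaks were found at 131 of 248 (52.8%, 46.6 to 58.9%), against 1.24% of all rows. In Iho1KO they were found at 179 (72.2%, 66.3 to 77.4%), against 3.75%, in a list of 5380 SYCP3 peaks where the wild-type list had 1911. In Hormad1KO the number was 128 (51.6%, 45.4 to 57.8%), against 1.21%, in a list of 823. Spo11KO and Mei4KO each had 92 members with SYCP3 (37.1%, 31.3 to 43.3%), against 1.46 and 1.09% of all rows. Prdm9KO had the fewest, at 56 (22.6%, 17.8 to 28.2%), against 0.483%. Hormad1KO therefore had SYCP3 at a share of members near that of the wild type while IHO1 was found at 1. By member, 100 had SYCP3 in both, 31 in the wild type alone and 28 in Hormad1KO alone.

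Members that had SYCP3 in the wild type were found more often in some of the knockouts, in a split made after the values were seen. IHO1 in Prdm9KO was found at 74 of the 131 members with wild-type SYCP3 (56.5%) and at 27 of the 117 without it (23.1%), a difference of 33.41 points (21.4 to 44.0). In Spo11KO and Mei4KO the IHO1 differences were 18.8 points (6.42 to 30.5) and 15.0 points (4.13 to 25.6). HORMAD1 differed in the same direction in Prdm9KO, by 16.8 points (5.71 to 27.5). In the other 3 HORMAD1 lists the differences lay between -4.55 and 1.55 points, with intervals that included 0.

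MEI4 and DMC1 were at few members or none. MEI4 was found at 5 members in the wild type (2.02%, 0.864 to 4.63%), against 0.0294% of all rows. The numbers were 3 in Prdm9KO (background 0.0163%), 4 in Spo11KO (0.0294%), 1 in Iho1KO (0.0424%) and 1 in Hormad1KO (0.0751%). The DMC1 list of Hormad1KO touched 0 of 248 members, which allows a share of up to 1.21%, against 0.0849% of all rows without a wild-type hotspot. The choice had removed the wild-type hotspots, and 69.7% of the 33 CTCF rows with HORMAD1 and IHO1 at such a hotspot had a DMC1 peak in Hormad1KO, so nothing is read from the 0. Of the 5 members with wild-type MEI4, 4 lay within 1 Mb of the last annotated gene end of chromosome 4 or 9, where 5 members lie in all. Among those 4 were chr4:156134228-156136939 near Rnf223 and chr9:124256316-124257897. The fifth was chr3:31136753-31142450 near Cldn11, which encodes a tight junction protein of Sertoli cells. Without the 5 members at chromosome ends, wild-type MEI4 was at 1 of 243 members (0.412%).

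The same proteins at hotspots gave other values. Along with the 248 members, 33 CTCF rows carried wild-type HORMAD1 and IHO1 but lay at a DMC1 hotspot, a comparison added after the values were seen. Those 33 rows had a median CTCF score of 2.41 and a median width of 5287 bp, against 4.11 and 3068 bp at members. The sets were not matched for either, and the part of score and row width in the differences below was not tested. Wild-type MEI4 was at 57.6% of those 33, and members minus these sites was -55.6 points (-70.8 to -38.6). The sets were split by wild-type DMC1, which is found on breaks that MEI4 helps to make. The choice therefore bears on the MEI4 contrast, and nothing is read from it. Wild-type SYCP3 was at 87.9% of the 33 hotspot rows and 52.8% of members, a difference of -35.1 points (-44.6 to -18.7). IHO1 in Hormad1KO was at 60.6% of them, against 0.403% of members (-74.9 to -43.2). HORMAD1 in Prdm9KO went the other way, with 27.3% at the hotspot sites and 73.0% at members (27.8 to 59.0 points higher). HORMAD1 in Mei4KO was likewise at 24.2% of the hotspot sites and at 58.9% of members (16.7 to 47.5 points higher). In Spo11KO the HORMAD1 shares were 81.8 and 86.3%, and the interval of their difference, -6.25 to 21.1 points, included 0. IHO1 in Mei4KO was at 30.3% of the hotspot sites and 74.6% of members (26.3 to 58.2 points higher). HORMAD1 in Iho1KO (45.5 against 83.1%) and IHO1 in Prdm9KO (15.2 against 40.7%) were also higher at members, with intervals above 0. For IHO1 in Spo11KO the order turned, with 69.7% at the hotspot sites and 55.2% at members. The interval of that difference, -28.8 to 3.63 points, included 0.

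The 2 closest classes of CTCF site differ from the members by 1 condition of the choice, the wild-type IHO1 peak or the wild-type HORMAD1 peak. They were not matched to the members otherwise. Median CTCF scores were 4.11 at members, 3.95 with HORMAD1 lacking IHO1 and 3.22 with IHO1 lacking HORMAD1. Where HORMAD1 was found in Prdm9KO, its wild-type peak had a median width of 2235 bp at members and 1802 bp with HORMAD1 lacking IHO1. The part of score and peak width in the differences from these classes was not tested. Differences were taken over 20 lists against each, with Newcombe 95% intervals that are not adjusted for the number of lists, and a difference was called where its interval excluded 0. HORMAD1 in Prdm9KO was found at 73.0% of members and 55.5% of the 344 sites with HORMAD1 lacking IHO1, a called difference of 17.5 points (9.66 to 24.8). For HORMAD1 in Spo11KO the difference was 4.89 points (-1.23 to 10.7). In Mei4KO it was -0.141 (-8.16 to 7.80) and in Iho1KO -0.656 (-6.91 to 5.30). These 3 were not called, and the sign turned for Mei4KO without rows at gene ends (3.42 points) and for Iho1KO with the centre base (5.0001 points) and in the wider 50% of wild-type peaks (10.1 points). That last setting kept members by a wide HORMAD1 or a wide IHO1 peak, but the 344 sites only by a wide HORMAD1 peak. Nothing is read from the difference there.

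SYCP3 was found more often at members than at sites with HORMAD1 lacking IHO1 in all 6 lists, by 14.2 points in Prdm9KO to 22.8 points in Iho1KO, and each difference was called. In the wild type the shares were 52.8 and 30.8%. Against the 169 sites with IHO1 lacking HORMAD1, SYCP3 was again called higher at members in all 6 lists, by 11.3 points in Prdm9KO to 35.5 in Iho1KO. IHO1 in Prdm9KO, Spo11KO and Mei4KO was found at 19.5, 23.1 and 38.5% of those 169 sites, although they carried a wild-type IHO1 peak by choice. At members the IHO1 shares were higher by 21.2 points (12.3 to 29.3), 32.2 points (22.9 to 40.5) and 36.1 points (26.7 to 44.7). IHO1 in Hormad1KO was at 3 of the 169 (1.78%), and its difference of -1.37 points (-4.70 to 0.813) was not called. Sites with HORMAD1 lacking IHO1, which had no wild-type IHO1 peak by choice, had one in 42.4% of cases in Mei4KO, 24.1% in Spo11KO and 14.2% in Prdm9KO.

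Among the members, a higher CTCF score went with finding HORMAD1 again. Members were split by score into 4 classes of 62. In Prdm9KO, HORMAD1 was found at 53.2, 74.2, 79.0 and 85.5% from the lowest to the highest class, and the highest exceeded the lowest by 32.3 points (16.2 to 46.2). In Mei4KO the numbers found were 31, 33, 38 and 44 of 62, a difference of 20.97 points (3.76 to 36.5). In Spo11KO the difference was 14.5 points (1.19 to 27.5). It was 8.06 points (-6.54 to 22.3) for HORMAD1 in Iho1KO. For IHO1 the differences were 11.3 points in Prdm9KO (-5.79 to 27.5), 12.9 in Spo11KO (-4.54 to 29.3) and 8.06 in Mei4KO (-7.96 to 23.5). Of 14 such differences over HORMAD1, IHO1 and SYCP3, 3 had intervals above 0, those of HORMAD1 in Prdm9KO, Spo11KO and Mei4KO; whether HORMAD1 and IHO1 differed from each other in this was not tested. The calls depended on the settings. With the centre base of the CTCF row in place of the whole row, the differences of IHO1 were called in Spo11KO (21.5 points) and Mei4KO (21.8 points). With 50% or more of the shorter interval shared, that of SYCP3 in Hormad1KO was called (19.7 points), and with 2 classes in place of 4 HORMAD1 in Spo11KO was no longer called (8.06 points).

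The width of the wild-type peak went the other way for HORMAD1. Cut into 4 classes by the width of the wild-type HORMAD1 peak, the widest members were found less often than the narrowest in Spo11KO (77.4 against 93.5%, -16.1 points, -28.6 to -3.67). The same held in Iho1KO (74.2 against 91.9%, -17.7 points, -30.7 to -4.51). In Prdm9KO and Mei4KO the differences were -12.9 and -14.5 points with intervals that included 0. For IHO1, members under the widest class of wild-type IHO1 peaks were found more often than those under the narrowest in Prdm9KO (31 against 16 of 62, 24.2 points, 7.12 to 39.4). In Spo11KO and Mei4KO the IHO1 differences were 6.45 and -4.84 points, and neither was called.

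No member stood in all 18 knockout lists, and 1 stood in none. The median member was in 7 lists, and 27 members had HORMAD1 and IHO1 in every knockout list of these proteins other than IHO1 of Hormad1KO. Sites named here are those in the most lists and those with the highest and lowest scores, and the 13 members on chromosome 18 are counted but not named. The member in the most lists, 16 of 18, was chr9:124256316-124257897, which also had the highest score of all members, 31.4. It was the 1 member with IHO1 in Hormad1KO and the 1 with MEI4 in Iho1KO and Hormad1KO. It lay 331 bp from a wild-type DMC1 hotspot, the shortest such gap of any member, and 218965 bp from the last annotated gene end of its chromosome.

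The next 7 members were each in 12 lists, all 7 HORMAD1 and IHO1 lists named above and all 5 SYCP3 knockout lists, and all had wild-type SYCP3. They were chr12:81786350-81790213 near Map3k9, a kinase gene (score 7.97), chr7:91431300-91432892 inside Dlg2, a synaptic scaffold gene (5.21), chr16:23952324-23955790 near Bcl6, which encodes a transcriptional repressor (3.95), and chr5:137119942-137123880 near Trim56 (3.37). The other 3, chr16:50735821-50738508, chr10:118369175-118372147 and chr14:45771198-45775144, had scores of 7.23, 5.31 and 4.90 and no protein-coding gene within 50 kb. Their scores thus ran from below the median of the members to well above it.

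High score and presence in many lists did not always go together. The member with the second-highest score, 13.05, at chr13:13888840-13890269, had HORMAD1 and IHO1 in the same 7 lists. The site with a score of 8.76 near Caln1, chr5:130852283-130855496, had HORMAD1 in all 4 knockouts and IHO1 in none. The site with a score of 8.01 near Jup, the gene of junction plakoglobin, chr11:100361762-100364846, had HORMAD1 in all 4 and IHO1 in Spo11KO and Mei4KO. At the low end, 2 members had neither protein in any knockout list. They were chr19:4617860-4622830 in Pcx, the pyruvate carboxylase gene (score 1.08), and chr4:11544125-11546513 in Virma, a gene of the RNA methylation machinery (1.03). The wild-type HORMAD1 peak over the Pcx site was 17822 bp wide, and the CTCF row lay 2510 bp from a hotspot, while that in Virma lay 430 bp from one. Low scores of 0.625 at chr4:156254414-156255832 in Samd11 and 0.989 at chr4:156134228-156136939 near Rnf223 belonged to members at a chromosome end, found in 7 and 8 knockout lists.

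**Figure D4:**
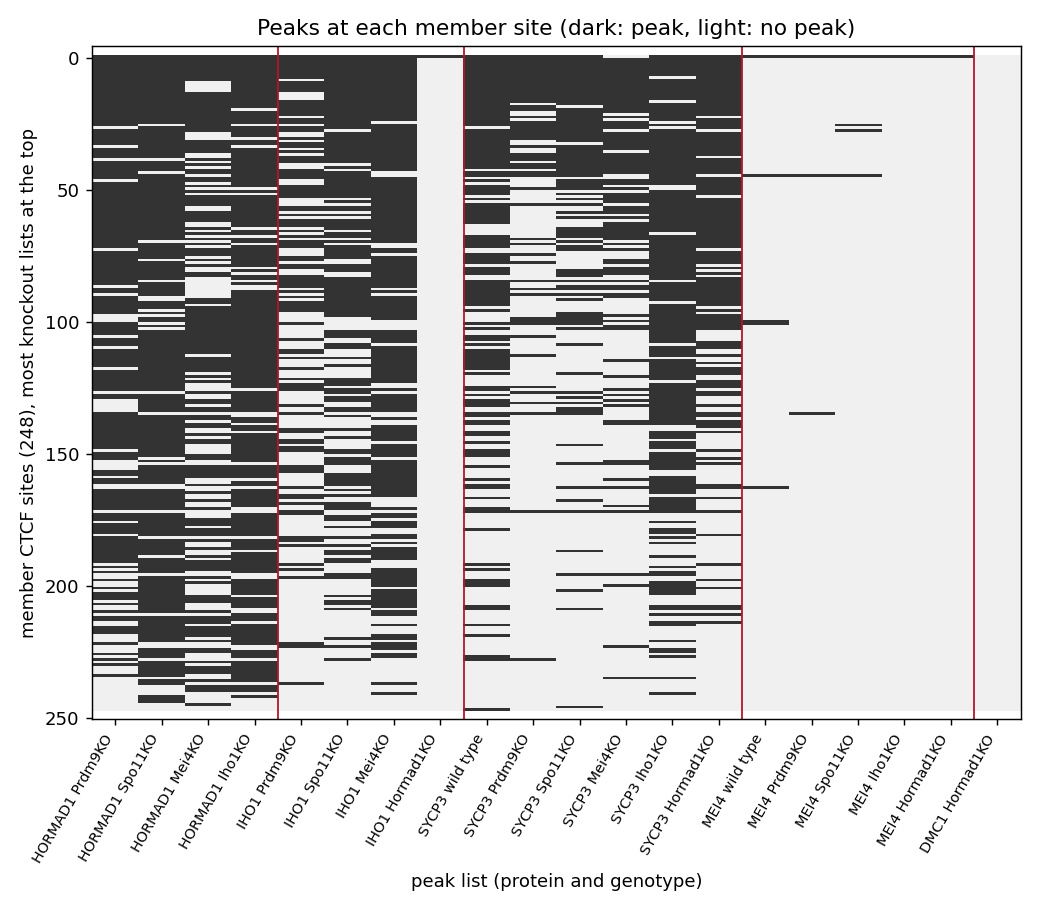
Each of the 248 members is a row, ordered by the number of knockout lists it is in, and each peak list is a column; a dark cell marks a peak at the member. The top row is the member found in 16 knockout lists, the columns of IHO1 in Hormad1KO and of MEI4 are nearly empty, and the DMC1 column of Hormad1KO is empty.

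Members lay near the centres of the peaks that defined them. The median distance between the centre of the CTCF row and that of the wild-type peak was 296 bp for HORMAD1 and 312 bp for IHO1. At the edge of the choice, the smallest shared length was 652 bp with HORMAD1 and 497 bp with IHO1, so few members depended on a marginal overlap. Just outside it, the nearest IHO1 peak to a site with HORMAD1 lacking IHO1 was 241 bp away, and 3 of the 344 had one within 1 kb. The nearest HORMAD1 peak to a site with IHO1 lacking HORMAD1 was 1062 bp away. The hotspot condition left 9 members within 2 kb of a hotspot, and the smallest overlap among the rows it left out was 155 bp. No wild-type HORMAD1 peak held more than 1 member, and the 250 HORMAD1 peaks and 250 IHO1 peaks at members were 14.6 and 15.7% of their wild-type lists.

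Members lay inside genes less often than CTCF sites with neither protein. The centre of the row was inside a protein-coding gene at 75 members (30.2%) and at 53.1% of the sites with neither protein, a difference of -22.8 points (-28.2 to -16.8). These 2 sets were not matched for median CTCF score (4.11 against 1.88) or row width (3068 against 1543 bp). The part of score and width in this difference was not tested. The 2 closest classes had like shares: 30.8% at sites with HORMAD1 lacking IHO1 (-0.572 points, -7.96 to 7.00) and 34.3% at sites with IHO1 lacking HORMAD1 (-4.08 points, -13.3 to 4.93), and neither difference was called. Within 1 kb of either end of a protein-coding gene lay 38 members (15.3%), 15.1% of the sites with HORMAD1 lacking IHO1, 14.3% of those with neither and 26.6% of those with IHO1 lacking HORMAD1. Members minus the last of these was -11.3 points (-19.5 to -3.42). The nearest hotspot was a median of 49340 bp from a member, and 46 members (18.5%) had one within 10 kb, against 12.2% of the sites with HORMAD1 lacking IHO1, a difference of 6.34 points (0.512 to 12.5). At sites with IHO1 lacking HORMAD1 the share was 18.3%, and the difference of 0.205 points (-7.63 to 7.57) was not called.

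By chromosome, the share of CTCF rows without a hotspot that were members ran from 0.268% on chromosome 6 (5 of 1865) to 1.64% on chromosome 16 (17 of 1039). Chromosome 5 had the most members, 27. None lay within 10 kb of a HOX gene, the clusters where CTCF is known to set domain borders, against 0.0326% of all rows. None lay within 10 kb of 39 imprinted genes found in the gene table, against 0.157% of all rows. Of 41 meiotic genes found there, 1 had a member within 10 kb, against 0.209% of all rows: the Pcx site, near Top6bl, a SPO11 partner gene listed in the table under an earlier name. A count of 0 among 248 members allows a share of up to 1.21%, which is above each of these background shares.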

How the data were processed

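Peak lists of 24 antibody and genotype groups of 36 were used, 1 per group; whether replicates were pooled is not stated. The submitters' processing notes name mm10, Bowtie2 and MACS2, without versions or roles. Per the series' design text, the authors removed the signal of a protein's own knockout from its data. The 21 lists of HORMAD1, IHO1, SYCP3 and MEI4 that the authors deposited hold positions and no strength, and depth is unknown. The deposited CTCF score was read with its decimal comma and compared only within its list. The deposited DMC1 signal was not used, only the positions of its hotspots.

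Intervals were intersected in Python 3.11.15 with NumPy 2.4.6 and pandas 2.3.3, with a minimum overlap of 1 bp, after a check on simulated intervals. Wilson and Newcombe 95% intervals cover counting error only. Gene positions (21627 protein-coding genes on chromosomes 1 to 19 and X) and promoters are from RefSeq GRCm38.p6. The gene table has no strand, so either end of a gene was used. Named sites were the 8 in the most knockout lists, the 5 highest and 5 lowest scores, up to 5 in no HORMAD1 or IHO1 knockout list and those near a listed gene; members with MEI4 were added after their values were seen, and 2 of these sites are counted but not reported here. The motif was searched in promoters, a choice made after the files were read, in place of the CTCF intervals. The members, lists and rules were chosen with earlier results of these data known. Alternatives covered the overlap, the centre base, merged peaks, the score, hotspot margin, peak width, gene ends and chromosome ends.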

Additional observations from a re-analysis of the deposited data

How the results depend on the processing

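Of 499 recomputed values, 461 kept their direction and their call or stayed within their interval, 17 shares moved, 9 differences became called, 3 lost the call and 9 changed sign, none of them called before or after. Changes of sign against sites with HORMAD1 lacking IHO1 were HORMAD1 in Mei4KO without gene ends (3.42 points), HORMAD1 in Iho1KO with the centre base (5.0001) and in the wider 50% of peaks (10.1), IHO1 in Hormad1KO with 50% overlap (-0.179) and without hotspots within 2 kb (-0.301), and position at gene ends without the margin (-0.628). By score they were SYCP3 in the wild type with the centre base (-2.69) and SYCP3 in Iho1KO with 50% overlap (1.07) and with 2 classes (2.42). With the centre base of the CTCF row in place of the interval (214 members, 204 of them among the 248), HORMAD1 in Spo11KO was at 81.3% and SYCP3 in Iho1KO at 65.4%. The highest minus lowest score class was then called for IHO1 in Spo11KO (21.5 points) and Mei4KO (21.8 points). The excess of HORMAD1 in Mei4KO over sites with IHO1 lacking HORMAD1 was called at 11.98 points. In the main setting it was 8.58 points (-1.12 to 18.1) and not called. Members had a wild-type HORMAD1 peak by choice and those sites had none, so nothing is read from this excess in any setting. In the wider 50% of wild-type peaks (117 members), IHO1 in Prdm9KO was at 49.6%, SYCP3 at 59.8% in the wild type and 29.9% in Prdm9KO. The excess of HORMAD1 in Spo11KO over sites with HORMAD1 lacking IHO1 was called there at 17.7 points, and that of SYCP3 in Prdm9KO over sites with IHO1 lacking HORMAD1 lost its call at 12.3 points. This setting kept a member if either its HORMAD1 or its IHO1 peak was wide. The closest classes could be kept only by the 1 wild-type peak they had, which left 89 and 51 sites. The sets were thus cut unlike each other, and nothing is read from their differences in this setting. In the wider 50%, with hotspots within 2 kb also left out, and without the last 1 Mb of a chromosome (added after seeing the data), IHO1 in Hormad1KO and MEI4 in Iho1KO and Hormad1KO were at 0, because the 1 member concerned was left out. Without chromosome ends, MEI4 was at 0.412% in the wild type and 0 in Prdm9KO; in the upper 50% of scores it was at 0.844% in the wild type. With 50% or more of the shorter interval shared (253 members), calls were gained for HORMAD1 in Mei4KO against sites with IHO1 lacking HORMAD1 (10.8 points), SYCP3 in Hormad1KO by score (19.7 points), and HORMAD1 by width in Prdm9KO (-19.4 points) and Mei4KO (-18.0 points). With 2 classes in place of 4, HORMAD1 by width in Mei4KO was called (-14.5 points), and HORMAD1 by score in Spo11KO (8.06 points) and IHO1 by width in Prdm9KO (12.1 points) lost their calls. Beyond what the settings themselves left out, the cause of these changes was not tested.

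No paired analysis was possible because each group has 1 peak list and the differences come from shares of sites, not from replicates, which also means that no replicate was left out. The search of 100 bp at the centre of each CTCF interval was not run. The lists give no depth.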

Other observations

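On the X chromosome, which the choice of sites leaves out, 29 of 881 CTCF rows carried wild-type HORMAD1 and IHO1 peaks and no wild-type DMC1 hotspot. They were not followed through the knockouts.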
